A study of Mus musculus with 24 samples.

Results

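Gene expression on day 4 of culture in lactic acid was compared with expression on day 3 in 4T1 cells, an established mouse mammary carcinoma line. The comparison took all 6 arrays of these days, 3 a day, out of 24 arrays in the series, and all 19938 genes that the arrays could be matched to. On both days the cells stood in RPMI-1640 medium with 3 mM glucose and 20 mM lactic acid, so the groups differed only in the day of harvest as far as the labels say. The remaining groups had 3 arrays each: days 1, 5, 7, 9 and 11 in the same medium, and a control with 3 mM glucose and no lactic acid, whose time in culture is not given. The study looked for genes whose course over time went with longer survival on lactic acid when glucose is short. The labels call the replicates biological but do not say which came from separate cultures, so a p-value here reflects how far the arrays of a group scatter, which may be technical.

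Dividing cells make the transcripts of mitosis mainly in the G2 and M phases, so the level of these transcripts in a culture is widely used as a readout of division. Immediate early genes such as Fos and Jun encode transcription factors and phosphatases that cells switch on within a short time of a growth or stress signal. Interferon-stimulated genes respond to the STAT and IRF factors that bind the interferon-stimulated response element, and carcinoma cells can express them without any infection.

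A gene counted as changed where its adjusted p was below 0.05 in limma's moderated test with Benjamini-Hochberg adjustment over all 19938 genes. From day 3 to day 4, 204 genes changed, which is 1.02% of the genes tested. Of these 92 were higher on day 4 (0.461%) and 112 were lower (0.562%), and 21 rises and 38 falls reached 2-fold. In all 204 the 3 arrays of day 4 lay on the same side of the 3 arrays of day 3. The spread was estimated from the 21 lactic acid arrays, and the count moved widely with that choice. It was 806 with only the 6 arrays of these days, 262 with all 24 arrays, and 1588 without replicate 1 of day 1 and replicates 2 and 3 of day 9, a set that held all 204. The SD across genes was 1.94 on that array of day 1 and 2.16 to 2.34 on the other arrays. The left-out arrays of day 9 lay within that range, at 2.17 and 2.21. Leaving out arrays of other days changes the estimated spread and not the day 3 and day 4 values. The shared 204 are therefore no separate support. Leaving out 1 array of day 3 gave 74, 66 and 106 changed genes for replicates 1, 2 and 3, and leaving out 1 array of day 4 gave 76, 56 and 88.

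**Figure D1:**
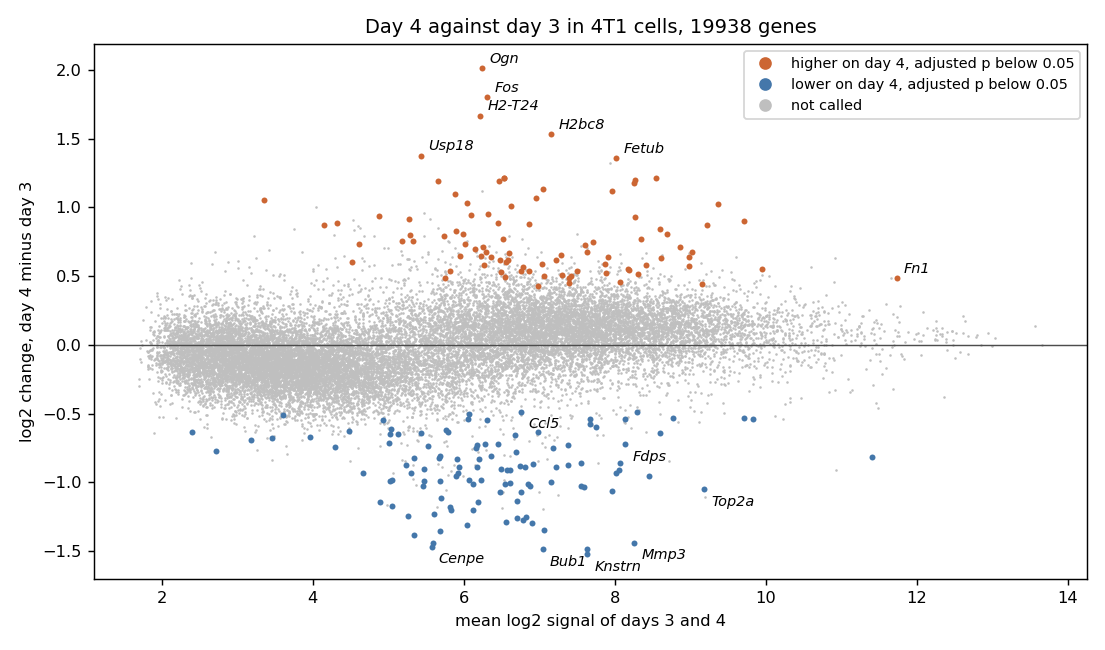
Change from day 3 to day 4 (y axis, log2) against the mean log2 signal of both days (x axis) for 19938 genes, with the 92 rises and 112 falls that passed the test in colour and the rest in grey. The falls cluster at middle signals, where Bub1, Knstrn and Cenpe lie, and the largest rises are Ogn, Fos and H2-T24.

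The arrays of the 2 days differed in their overall spread of signal. The SD across genes was 2.16 to 2.18 on the day 3 arrays and 2.24 to 2.26 on the day 4 arrays, and the array medians were 5.17 to 5.23 against 5.08 to 5.13. The median change over all genes was -0.03, and it was 0.07 after each array was centred on its median, so other changes are read against this shift of about 0.1. With centred arrays the split was 144 rises and 57 falls, in place of 92 and 112. The dimmest 3988 genes had a median change of -0.09 and the brightest 3988 one of 0.12. The part of this shift in the results was not tested. Of 12 markers of mammary epithelium, 6 lay above the array medians on both days (Cdh1, Cldn3, Cldn4, Krt7, Krt8 and Krt18). The mean level of the 12 was 6.35 to 6.48 on day 3 and 6.21 to 6.25 on day 4, their median change was -0.24, and 1 was higher and 4 were lower at an unadjusted p below 0.05. Of the leukocyte markers, 1 of 11 did so (Cd68), and their mean level was 3.97 to 3.98 on day 3 and 3.69 to 3.77 on day 4. Of the fibroblast markers 4 of 10 did so (Col1a1, Col3a1, Pdgfra and Pdgfrb), with mean levels of 4.80 to 5.00 and 4.81 to 4.84. Of the skeletal muscle markers 2 of 10 did so (Acta1 and Tnnt3, 4.64 to 4.80 and 4.57 to 4.61), of the endothelial markers 1 of 11 (Flt1, 4.13 to 4.22 and 4.14 to 4.18), and of the adipocyte markers 0 of 8 (3.52 to 3.72 and 3.40 to 3.48). No marker of leukocytes, endothelium, fibroblasts, adipocytes, muscle or mammary epithelium passed limma's test. At an unadjusted p below 0.05, 3 were higher and 7 lower of 62 memberships, beside 2534 of all 19938 genes in either direction. The part of these levels in the results was not tested.

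The transcripts of mitosis and the spindle fell. Of 34 measured genes of this list, 23 were lower on day 4, against 0.562% of all genes. None was higher and 11 did not pass limma's test. At an unadjusted p below 0.05, 33 were lower and 0 higher, beside 2534 of all 19938 genes in either direction. The median change of the list was -1.06 on the log2 scale, against -0.03 over all genes, and it was -1.07 after loess scaling and -0.96 with centred arrays. In all 34 genes the day 4 arrays lay below the day 3 arrays, which was true of 14.4% of all genes. The mean level of the list was 6.96, 7.09 and 7.01 on the day 3 arrays and 6.003, 5.945 and 6.021 on the day 4 arrays. The groups did not overlap, and the control arrays were higher still, at 8.84, 8.97 and 8.98. In a bulk culture, fewer dividing cells and less of these transcripts per cell cannot be told apart.

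Bub1, the spindle checkpoint kinase of the kinetochore, measured 7.60, 7.81 and 7.95 (log2 signal) on day 3 and 6.30, 6.06 and 6.54 on day 4. Every day 4 array was below every day 3 array by more than the spread within either day. The change was -1.49 (SE 0.23, limma adjusted p 0.00179), a 2.81-fold fall. Ccnb2, the mitotic cyclin B2, read 8.42, 8.57 and 8.13 on day 3 against 6.80, 6.96 and 6.91 on day 4. Its change was -1.48 (SE 0.18, 95% confidence interval -1.85 to -1.12, limma adjusted p 0.000148). Cenpe, the kinesin that carries chromosomes to the spindle equator, read 6.02, 6.57 and 6.33 against 4.90, 4.74 and 4.88, a change of -1.47 (SE 0.21, limma adjusted p 0.000915). These 3 genes had the largest falls of the list.

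The sequences before the start sites of these 3 genes are shown because promoters of mitotic genes are known to carry CCAAT boxes, and often the cell cycle homology region TTTGAA. They are RefSeq promoters of GRCm38.p6, 180 bases up to the start site, 5′ to 3′, and capitals mark every match, on either strand, to the CCAAT box, the homology region just named, the cyclic AMP response element TGACGTCA, or the interferon core (GAAA and a further GAAA with any 2 bases between).
Bub1 promoter, chr2:127831860-127832039, minus strand: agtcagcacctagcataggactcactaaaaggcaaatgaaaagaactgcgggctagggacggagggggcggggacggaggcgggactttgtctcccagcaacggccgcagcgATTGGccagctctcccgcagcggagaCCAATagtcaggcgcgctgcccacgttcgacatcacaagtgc
Ccnb2 promoter, chr9:70421555-70421734, minus strand: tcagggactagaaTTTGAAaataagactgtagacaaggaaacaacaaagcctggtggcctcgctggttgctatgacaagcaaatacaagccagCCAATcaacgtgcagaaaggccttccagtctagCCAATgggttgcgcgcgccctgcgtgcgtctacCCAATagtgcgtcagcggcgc
Cenpe promoter, chr3:135212383-135212562, plus strand: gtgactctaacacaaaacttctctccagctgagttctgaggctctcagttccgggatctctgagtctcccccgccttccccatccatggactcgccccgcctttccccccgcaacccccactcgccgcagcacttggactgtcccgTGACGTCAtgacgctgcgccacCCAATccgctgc
Bub1 held 2 CCAAT matches within 68 bases of its start and Ccnb2 held 3 within 87 bases. Cenpe held 1 CCAAT match, beside a full TGACGTCA element at 34 to 27 bases before the start. Over the 250 bases before the start, CCAAT was present in 22 of 29 mitosis genes with a promoter in the table (75.9%), in 53 of 88 genes that fell (60.2%), in 35 of 75 that rose (46.7%) and in 5541 of 15614 of all tested genes (35.5%). TTTGAA was present in 10 of the 29 mitosis genes (34.5%) and in 13.7% of all. A match in these windows is a description of sequence, and the motifs were chosen after values had been seen.

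Further falls lay in genes of the kinetochore, the spindle and mitotic entry. Knstrn, a kinetochore and spindle protein also called kinastrin, had the largest fall of any named gene. It read 8.48, 8.37 and 8.36 on day 3 and 6.87, 6.76 and 7.00 on day 4, a change of -1.53 (SE 0.18, limma adjusted p 0.000125). Bub1b, a further checkpoint kinase, changed by -1.25 (SE 0.19) and Aspm, a spindle pole protein, by -1.36 (SE 0.17). Aurkb, the kinase of the chromosomal passenger complex, changed by -1.29 (SE 0.16) and Kif2c, a kinesin that takes microtubules apart, by -1.29 (SE 0.19). Cdc25c, the phosphatase that activates CDK1, changed by -1.44 (SE 0.16, limma adjusted p 0.000125).

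Other falls in division genes lost their call when 1 array was left out. Kif4, a chromosome-bound kinesin, changed by -1.39 (SE 0.27, limma adjusted p 0.0118), and the call was lost without replicate 1 or 2 of day 3 or replicate 1 or 3 of day 4 (adjusted p up to 0.0719). Dlgap5, which stabilises spindle microtubules, changed by -1.35 (SE 0.26), and the call was lost without replicate 1 or 2 of either day (adjusted p up to 0.0781). Kif20a, a kinesin of cytokinesis, changed by -1.31 (SE 0.28), and its call held only without replicate 1 of day 3 (adjusted p up to 0.128 without the others). Among the 11 list members that did not pass, Ccna2, cyclin A2, changed by -1.09 (SE 0.26, limma adjusted p 0.0503). Mki67, the Ki-67 proliferation antigen, changed by -0.81 (SE 0.22, limma adjusted p 0.087), and Cdk1 by -0.32 (adjusted p 0.192). Their day 4 arrays also lay below their day 3 arrays. In place of 23 lower genes, the list held 14, 10 and 15 without replicates 1, 2 and 3 of day 3, and 12, 11 and 11 without those of day 4.

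**Figure D2:**
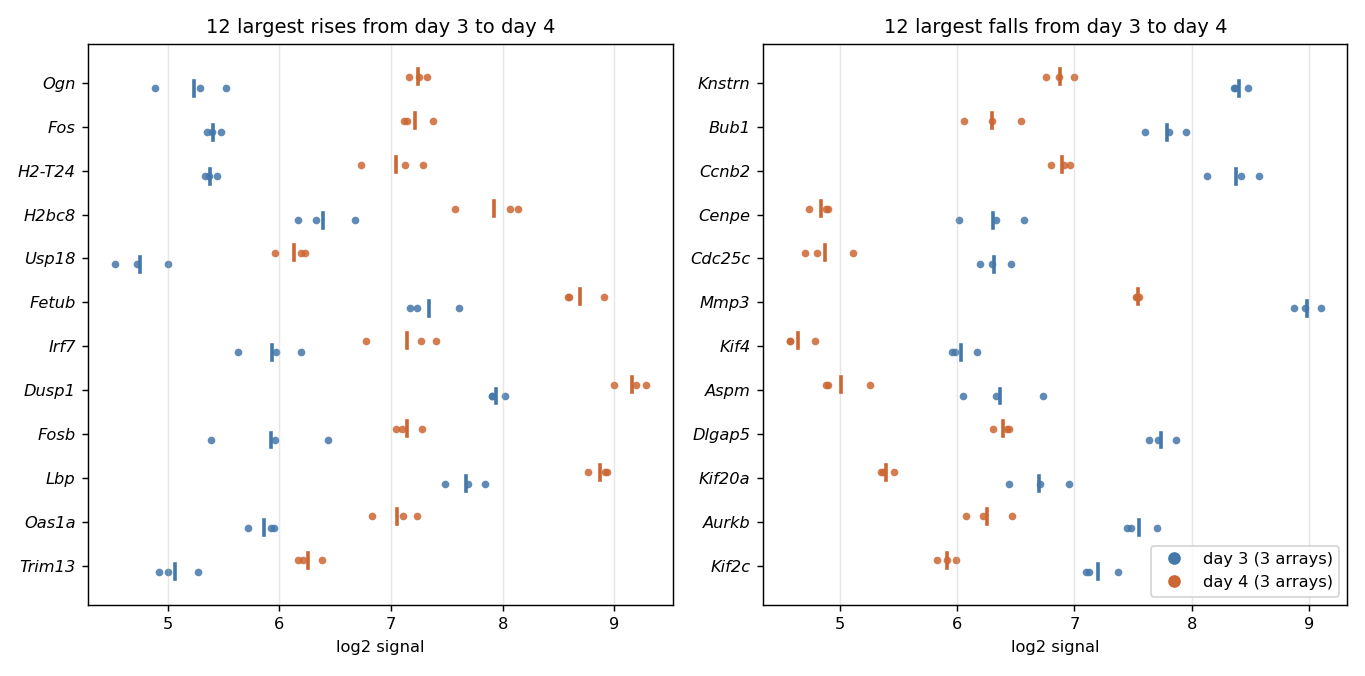
Log2 signal (x axis) of the 12 largest rises (left) and 12 largest falls (right) among named genes, 3 arrays of day 3 in blue and 3 of day 4 in orange, with bars at the means. In every gene shown the arrays of the 2 days are separated, and in Mmp3 the 3 day 4 arrays nearly coincide.

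Of 33 genes of DNA replication and nucleotide supply, 4 were lower, against 0.562% of all genes, and none was higher. Their median change was -0.34. At an unadjusted p below 0.05, 19 were lower and 0 higher, beside 2534 of all 19938 genes in either direction. In 27 of the 33 the day 4 arrays lay below the day 3 arrays, against 14.4% of all genes. Cdt1, which loads the MCM helicase at origins, read 8.523, 8.439 and 8.495 on day 3 and 7.573, 7.451 and 7.631 on day 4. Its change was -0.93 (SE 0.16, limma adjusted p 0.00353). Mcm10, which takes part in starting the replication fork, changed by -0.91 (SE 0.14, limma adjusted p 0.00185). Cdc45, a part of the active helicase, changed by -0.78 (SE 0.15, limma adjusted p 0.0118), and the call was lost without replicate 1 or 2 of day 3 or replicate 2 or 3 of day 4 (adjusted p up to 0.088). Loess scaling gave 12 falls in this list in place of 4, and centred arrays gave 3.

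Of 21 genes of DNA damage repair, 5 were lower by limma's test, against 0.562% of all genes, and none was higher. At an unadjusted p below 0.05, 14 were lower and 0 higher, beside 2534 of all 19938 genes in either direction. The list's median change was -0.53. The falls were Fancd2 and Fanci, the paired proteins of the Fanconi anaemia pathway (-1.03 and -0.72), Rad54b and Rad54l, ATPases of homologous recombination (-0.90 and -0.83), and Brca1 (-0.89). With centred arrays 2 of the 21 passed. The calls of Fancd2 and Rad54b each held without 1 of the 6 arrays only, replicate 3 of day 3 and replicate 3 of day 4 (adjusted p up to 0.104 and 0.125 otherwise), and that of Rad54b was lost with centred arrays (0.0548). The call of Brca1 was lost whichever array was left out (up to 0.18), with centred arrays (0.116) and with a replicate block (0.0711). Among the G1 regulators, 1 of 25 changed: Mybl2, the B-Myb factor of the late cell cycle, by -0.91 (SE 0.21, limma adjusted p 0.0433). Its call was lost whichever of the 6 arrays was left out (up to 0.188), with centred arrays (0.0905) and with the replicate number as a block (0.0711).

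Of 17 replication-dependent histone genes measured, 3 were higher, against 0.461% of all genes, none was lower and 14 did not pass limma's test. The median change was -0.12, or 0.005 after loess scaling. At an unadjusted p below 0.05, 4 were higher and 2 lower, beside 2534 of all 19938 genes in either direction. H2bc8, a histone H2B gene, read 6.68, 6.16 and 6.33 on day 3 and 8.13, 8.07 and 7.57 on day 4. Its change was 1.53 (SE 0.26, limma adjusted p 0.00335), a 2.89-fold rise. H4c9 rose by 0.88 (SE 0.17) and H1f2 by 0.84 (SE 0.18). The H4c9 call was lost without replicate 1 or 2 of day 3 or replicate 2 or 3 of day 4 (adjusted p up to 0.0869), and the H1f2 call was lost whichever of the 6 arrays was left out (up to 0.1) and under loess scaling (0.0713). Histone genes of a class have near-identical coding sequences, so which copies a probe set reports is uncertain.

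Immediate early genes split. Of 27 measured, 5 were higher, 1 was lower and 21 did not pass, against 0.461% of all genes higher and 0.562% lower. The list's median change was 0.11. At an unadjusted p below 0.05, 9 were higher and 2 lower, beside 2534 of all 19938 genes in either direction. In 11 of the 27 the day 4 arrays lay above the day 3 arrays, against 17.5% of all genes, and in 3 below, against 14.4%. Fos, the AP-1 subunit, read 5.48, 5.40 and 5.35 on day 3 and 7.11, 7.14 and 7.38 on day 4. The day 3 arrays overlapped the control arrays (5.07, 5.32 and 5.47), and the day 4 arrays stood above both. Its change was 1.80 (SE 0.25, 95% confidence interval 1.27 to 2.33, limma adjusted p 0.000817), a 3.49-fold rise. Dusp1, the phosphatase that switches off MAP kinases, read 7.90, 7.90 and 8.02 against 9.19, 8.99 and 9.28, a rise of 1.21 (SE 0.18, limma adjusted p 0.000995). Day 3 held the lowest mean level of Dusp1 among all groups, the control at 8.43 included.

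Jun, the partner of Fos, rose by 0.93 (SE 0.18, limma adjusted p 0.0121). Fosb read 5.96, 5.38 and 6.43 on day 3 and 7.04, 7.09 and 7.28 on day 4. Its day 3 arrays were wide apart, its rise was 1.21 (SE 0.29, limma adjusted p 0.0433), and the call held only without replicate 3 of day 3 (up to 0.257 without the others). Ier2, a short-lived nuclear regulator, rose by 1.12 (SE 0.27, limma adjusted p 0.0455). Fosl1, which encodes the Fos relative Fra-1, went the other way, from 7.76, 7.72 and 7.76 to 7.03, 6.95 and 7.08. Its fall of 0.73 (change -0.73, SE 0.17, limma adjusted p 0.0433) was lost whichever of the 6 arrays was left out (up to 0.183), with centred arrays (0.11) and with a replicate block (0.0577). Other classic members did not pass: Egr1 changed by 0.16, Junb by -0.11 and Atf3 by 0.42. Myc changed by 0.47 (SE 0.11, limma adjusted p 0.0526). In place of 5 rises, the list held 2, 2 and 3 without replicates 1, 2 and 3 of day 3, and 2, 3 and 2 without those of day 4. Fos and Dusp1 were among them in each of these fits, and Fosb without replicate 3 of day 3. The calls of Jun and Ier2 were thus both lost without any 1 array of day 3 and without replicate 1 or 3 of day 4. Without replicate 2 of day 4 at most 1 of these 2 calls held.

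The promoter of Fos is shown as that of the second largest rise, by the same source, length and capitals as above.
Fos promoter, chr12:85473710-85473889, plus strand: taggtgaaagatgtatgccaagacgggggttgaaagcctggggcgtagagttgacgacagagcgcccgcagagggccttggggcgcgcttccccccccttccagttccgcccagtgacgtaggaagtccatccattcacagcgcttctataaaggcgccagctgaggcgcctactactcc
None of the 4 motifs was found in these letters, which says nothing of sites outside the window or of other motifs. TGACGTCA was present in 2 of 20 immediate early genes with a promoter and in 2.12% of all tested genes.

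Interferon-stimulated genes rose in part. Of 27 measured, 11 were higher, 1 was lower and 15 did not pass, against 0.461% of all genes higher and 0.562% lower. The list's median change was 0.54 (0.47 after loess scaling and 0.64 with centred arrays). In 20 of the 27 the day 4 arrays lay above the day 3 arrays, against 17.5% of all genes. Usp18, which removes ISG15 from proteins and dampens the receptor, read 5.00, 4.53 and 4.73 on day 3 and 6.20, 6.23 and 5.96 on day 4. Its change was 1.38 (SE 0.17, limma adjusted p 0.000156), a 2.60-fold rise. Rtp4, an interferon-induced chaperone of receptors, read 6.83, 6.20 and 6.41 against 7.69, 7.52 and 7.63, a rise of 1.13 (SE 0.14, limma adjusted p 0.000148). In both genes the day 4 replicates lay closer together than the day 3 replicates.

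Oas1a, which makes the messenger that activates RNase L, read 5.92, 5.72 and 5.96 on day 3 and 7.23, 6.83 and 7.10 on day 4, a rise of 1.19 (SE 0.19, limma adjusted p 0.00199). Mouse Oas1 genes are close copies, so signal from a neighbour cannot be separated. Irf7, the factor that amplifies type I interferon, read 6.20, 5.63 and 5.97 against 7.27, 7.40 and 6.77, a rise of 1.22 (SE 0.24, limma adjusted p 0.0137). Its call was lost without replicate 2 of day 3 or replicate 1 or 2 of day 4 (up to 0.108). The further rises were Oasl2 (1.06), Trim30a (1.03), Parp14 (0.88), Oas3 (0.76), Xaf1 (0.76), Bst2, the tetherin that holds virions at the membrane (0.64), and Ddx58, the RNA sensor RIG-I (0.54). Other members did not pass: Ifit1 changed by 1.00 (limma adjusted p 0.0726), Rsad2 by -0.17 and Mx1 by -0.23. Ccl5, a chemokine, was the member that was lower, by 0.49 (change -0.49, SE 0.11, limma adjusted p 0.0397), and this was lost whichever of the 6 arrays was left out (up to 0.149), with centred arrays (0.166) and with a replicate block (0.0503). In place of 11 rises, the list held 6, 5 and 9 without replicates 1, 2 and 3 of day 3, and again 6, 5 and 9 without those of day 4.

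The promoter of Oas1a is shown for its response elements. It was picked after values had been seen, and source, length and capitals are as above.
Oas1a promoter, chr5:120907526-120907705, minus strand: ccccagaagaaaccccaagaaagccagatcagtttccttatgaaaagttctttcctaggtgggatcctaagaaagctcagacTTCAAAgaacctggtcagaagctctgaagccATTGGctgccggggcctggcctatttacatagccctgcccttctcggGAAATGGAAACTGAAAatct
It held 2 overlapping matches to GAAA, any 2 bases and GAAA, the core of the interferon-stimulated response element, between 20 and 5 bases before the start. This core was present in 9 of 20 interferon-response genes with a promoter, in 7 of 75 genes that rose (9.33%) and in 2.93% of all tested genes.

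Of 8 interferon-inducible GTPases, which act on membranes of intracellular pathogens, 2 were higher by limma's test, against 0.461% of all genes. None of the 8 was lower by that test, and at an unadjusted p below 0.05 5 were higher and 1 lower. Irgm1 read 6.23, 6.09 and 6.05 on day 3 and 7.26, 7.04 and 7.10 on day 4, a rise of 1.01 (SE 0.11, limma adjusted p 0.000125). Gbp3 rose by 0.88 (SE 0.16), but its signal lay below the array medians on both days, and its call was lost without replicate 1 of day 3 or replicate 2 of day 4 (adjusted p up to 0.0868). None of 19 genes of MHC and antigen processing passed limma's test, with a median change of 0.12. At an unadjusted p below 0.05, 5 of the 19 were higher and 1 lower, beside 2534 of all 19938 genes in either direction. With centred arrays 2 of the 19 were higher and 0 lower. H2-T24, a non-classical MHC class I gene outside that list, read 5.37, 5.44 and 5.33 on day 3 and 7.29, 7.13 and 6.73 on day 4. Its rise was 1.67 (SE 0.21, limma adjusted p 0.000261), and close class I copies may share its probes.

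**Figure D3:**
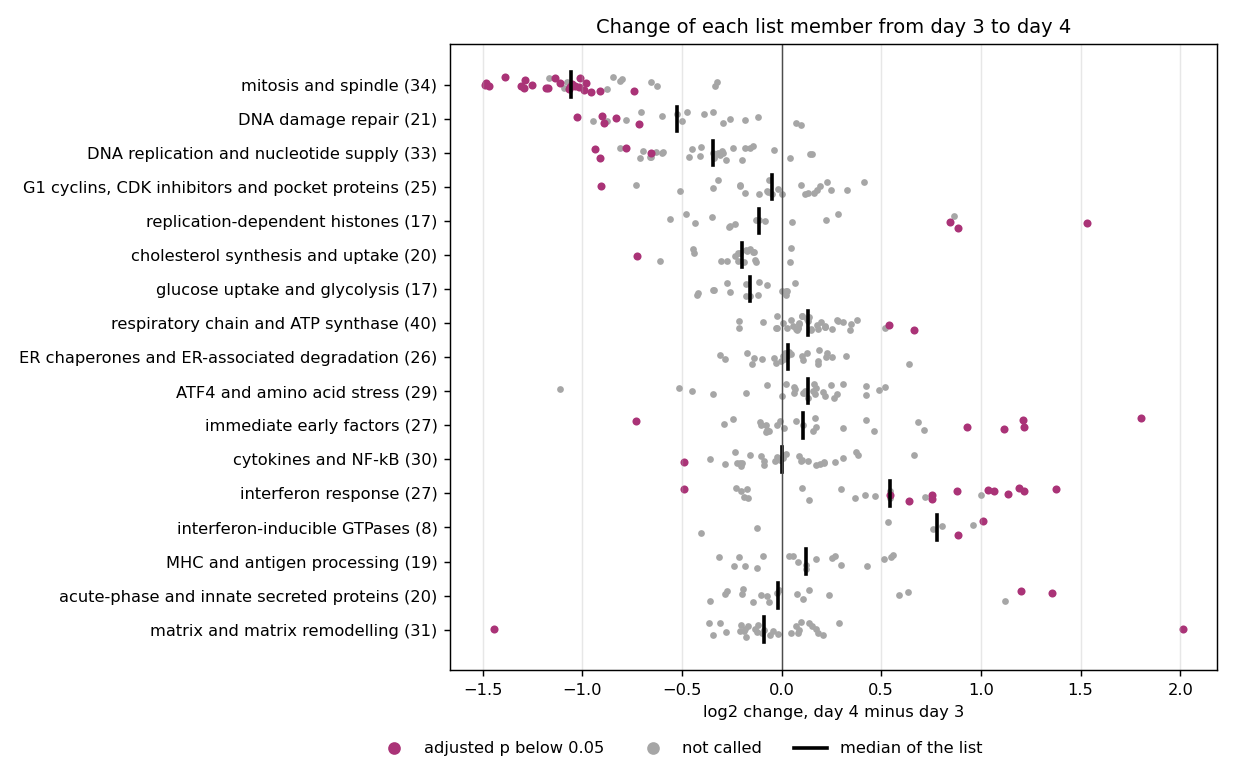
Change from day 3 to day 4 (x axis, log2) of every measured member of 17 gene lists (y axis, number of members in brackets), with members that passed the test in colour and black bars at list medians. The mitosis list lies wholly below 0, the interferon lists lie mostly above it, and the immediate early list spreads from -0.73 to 1.80.

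Among genes for secreted proteins, the largest rise of all was Ogn, osteoglycin, a small leucine-rich proteoglycan of the matrix. It read 4.88, 5.29 and 5.52 on day 3 and 7.32, 7.25 and 7.16 on day 4, a change of 2.01 (SE 0.24, 95% confidence interval 1.51 to 2.52, limma adjusted p 0.000148), or 4.03-fold. Its control arrays were at 3.07, 3.19 and 3.23, so day 3 already lay above them and day 4 was higher again. Fetub, fetuin B, a protease inhibitor secreted mainly by liver, read 7.24, 7.17 and 7.61 against 8.59, 8.90 and 8.58. It rose by 1.36 (SE 0.19, limma adjusted p 0.000627). Lbp, the lipopolysaccharide-binding protein of the acute phase, read 7.49, 7.84 and 7.69 against 8.94, 8.92 and 8.77, a rise of 1.20 (SE 0.17, limma adjusted p 0.000817). These 2 genes were the members that changed among 20 acute-phase and innate secreted proteins, against 1.02% of all genes. The list's median change was -0.02, or 0.08 with centred arrays.

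The promoter of Ogn is shown as that of the largest rise, by the same source, length and capitals.
Ogn promoter, chr13:49607835-49608014, plus strand: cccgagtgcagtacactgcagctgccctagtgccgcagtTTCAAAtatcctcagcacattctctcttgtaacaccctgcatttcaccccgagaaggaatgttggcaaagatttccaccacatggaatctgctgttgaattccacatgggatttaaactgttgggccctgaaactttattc
It held 1 match to TTTGAA, read on the opposite strand.

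Mmp3, the matrix metalloproteinase stromelysin, read 8.96, 9.10 and 8.87 on day 3 and 7.55, 7.54 and 7.53 on day 4. Its fall, a change of -1.44 (SE 0.21, limma adjusted p 0.000817), was 2.72-fold. The day 3 arrays overlapped the control arrays (9.15, 8.70 and 8.75), and the day 4 arrays lay below both. Mmp3 and Ogn were the members that changed among 31 matrix genes, against 1.02% of all genes. Ccn1, a matricellular protein of adhesion and migration, rose from 7.66, 7.65 and 7.67 to 8.81, 8.87 and 8.83, by 1.17 (SE 0.15, limma adjusted p 0.000201). Both days lay below its control mean of 9.96. Fn1, fibronectin, changed by 0.48 (SE 0.11, limma adjusted p 0.0392), and this was lost whichever of the 6 arrays was left out (up to 0.182), under loess scaling (0.245), with a replicate block (0.0598) and with all 24 arrays in the fit (0.104). Outside these lists Trim13, a ubiquitin ligase of the endoplasmic reticulum, rose by 1.19 (SE 0.14, limma adjusted p 0.000125), from 5.01, 4.92 and 5.27 to 6.16, 6.38 and 6.21.

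No gene of the lists for lactate and glucose metabolism passed limma's test on the values as deposited. Of 24 genes for the use of lactate and pyruvate, limma's test called none, and the median change was 0.005. At an unadjusted p below 0.05, 3 of the 24 were higher and 0 lower, beside 2534 of all 19938 genes in either direction. After loess scaling 2 of the 24 were higher and 3 lower at that p, and the median was -0.04. Slc16a1, the lactate transporter MCT1, changed by -0.05 (95% confidence interval -0.27 to 0.18), and Ldha, the muscle-type lactate dehydrogenase subunit, by -0.18 (-0.42 to 0.07). Ldhb, the heart-type subunit, changed by 0.00 (-0.37 to 0.38). The 3 intervals lie between -0.42 and 0.38. Of 17 genes of glucose uptake and glycolysis limma's test called none, 0 were higher and 4 lower at an unadjusted p below 0.05, and the median change was -0.16. In 9 of the 17 the day 4 arrays lay below the day 3 arrays, against 14.4% of all genes. After loess scaling 1 gene was called lower and the median was -0.22. Slc2a1, the glucose transporter GLUT1, changed by -0.16 (-0.49 to 0.17). Txnip, which restrains glucose uptake, changed by 0.39 (-0.01 to 0.79). Slc16a3, the lactate transporter MCT4, changed by -0.16 (-0.51 to 0.20), with a signal below the array medians on both days. Of the other genes chosen for their function, Cpt1a changed by 0.06 (-0.26 to 0.38) and Vegfa by 0.08 (-0.27 to 0.42). None of these passed limma's test.

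Of 40 genes of the respiratory chain, 2 passed: Ndufa1 of complex I rose by 0.67 (SE 0.16) and Uqcrq of complex III by 0.54 (SE 0.12). Both calls were lost whichever of the 6 arrays was left out (adjusted p up to 0.182 and 0.16), and that of Uqcrq with a replicate block (0.0536). Among all genes 0.461% were called higher. The list's median change was 0.13, and at an unadjusted p below 0.05 7 were higher and 0 lower. After loess scaling the median was 0.02, with 4 higher and 3 lower at that p. In 21 of the 40 the day 4 arrays lay above the day 3 arrays, against 17.5% of all genes. In 3 they lay below, against 14.4%. Fdps, farnesyl diphosphate synthase, was the member that changed among 20 genes of cholesterol synthesis and uptake, by -0.72 (SE 0.13, limma adjusted p 0.00508), against 0.562% of all genes called lower. That list's median change was -0.20, and at an unadjusted p below 0.05 4 were lower and 0 higher. In 11 of the 20 the day 4 arrays lay below the day 3 arrays, against 14.4% of all genes. After loess scaling 3 were called lower, and with centred arrays 1. Scarb2, a lysosomal membrane receptor, was the member that changed among 25 lysosome genes, by 0.59 (SE 0.13). Its call was lost whichever of the 6 arrays was left out (up to 0.211) and under loess scaling (0.056). By limma's test no member of the 6 lists of stress genes passed. Of 22 genes of NRF2 targets, glutathione and the pentose phosphate path, 0 were higher and 9 lower at an unadjusted p below 0.05, the median change was -0.28, and 2 were called lower after loess scaling. At that unadjusted p, 4 were higher and 2 lower of 29 genes of ATF4 and amino acid stress, of which 1 was called lower after loess scaling. The counts were 2 and 0 of 20 genes of p53-linked arrest, 1 and 0 of 26 of the endoplasmic reticulum, 2 and 0 of 17 heat shock chaperones, and 0 and 1 of 24 HIF-1 targets. Among all 19938 genes 2534 reached that p in either direction. Hmox1, haem oxygenase, read 9.45, 9.04 and 9.40 on day 3 and 8.61, 8.42 and 9.41 on day 4, a change of -0.48 (-1.38 to 0.42), and its groups overlapped. Ddit3, the CHOP factor, changed by -0.45 (-1.06 to 0.16).

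Mitosis genes were higher again on day 5: 27 of 34 rose from day 4 to day 5 and none fell by limma's test. The step from day 4 to day 5 changed 2190 genes (11.0%), 1612 of them higher on day 5 (8.09%) and 578 lower (2.90%). Because this step shares the day 4 arrays, the difference between both steps was tested directly, as day 4 against the mean of days 3 and 5. Here 484 genes passed (2.43%), 159 with day 4 above (0.797%) and 325 with day 4 below (1.63%). The count was 302 without replicate 2 of day 3, 173, 145 and 201 without replicates 1, 2 and 3 of day 4, and 2931 without the arrays of days 1 and 9 named above. Of 34 mitosis genes, 28 had day 4 below the mean of its neighbours and none above (0 at an unadjusted p below 0.05), with a median of -0.99. The list's median level was 7.031 on day 3, 6.004 on day 4, 7.102 on day 5 and 5.676 on day 7. Bub1 returned to 7.39, 7.34 and 7.69 on day 5 and then fell to 5.90, 5.67 and 5.45 on day 7. Mmp3 was at 8.69, 9.38 and 9.31 on day 5 and at 6.42, 6.50 and 5.97 on day 7. The day 4 arrays of both genes thus lay below those of the day before and the day after.

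Several genes that rose were higher on day 4 than the mean of days 3 and 5. Ogn was at 5.37, 5.97 and 6.48 on day 5, and day 4 exceeded the mean of its neighbours by 1.66 (SE 0.21, limma adjusted p 0.000136). H2bc8 was at 5.78, 5.76 and 6.08 on day 5, and day 4 exceeded the mean by 1.79 (SE 0.22, limma adjusted p 0.000117). Rtp4 exceeded it by 1.13 (SE 0.12, limma adjusted p 1.74e-05). For Ogn and Rtp4 the means of days 7, 9 and 11 lay above that of day 4. Ogn had a mean of 7.24 on day 4, 5.94 on day 5, and 7.36, 7.93 and 7.59 on days 7, 9 and 11. Rtp4 had a mean of 7.61 on day 4, 6.49 on day 5, and 7.98, 8.09 and 8.12 on days 7, 9 and 11. The mean of H2bc8 was 7.92 on day 4 and 5.64, 5.90 and 6.92 on those days. Fos read 6.84, 7.28 and 7.35 on day 5, which overlapped its day 4 arrays, a change from day 4 of -0.06 (SE 0.25, limma adjusted p 0.93). It then read 5.58, 6.03 and 5.50 on day 7.

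**Figure D4:**
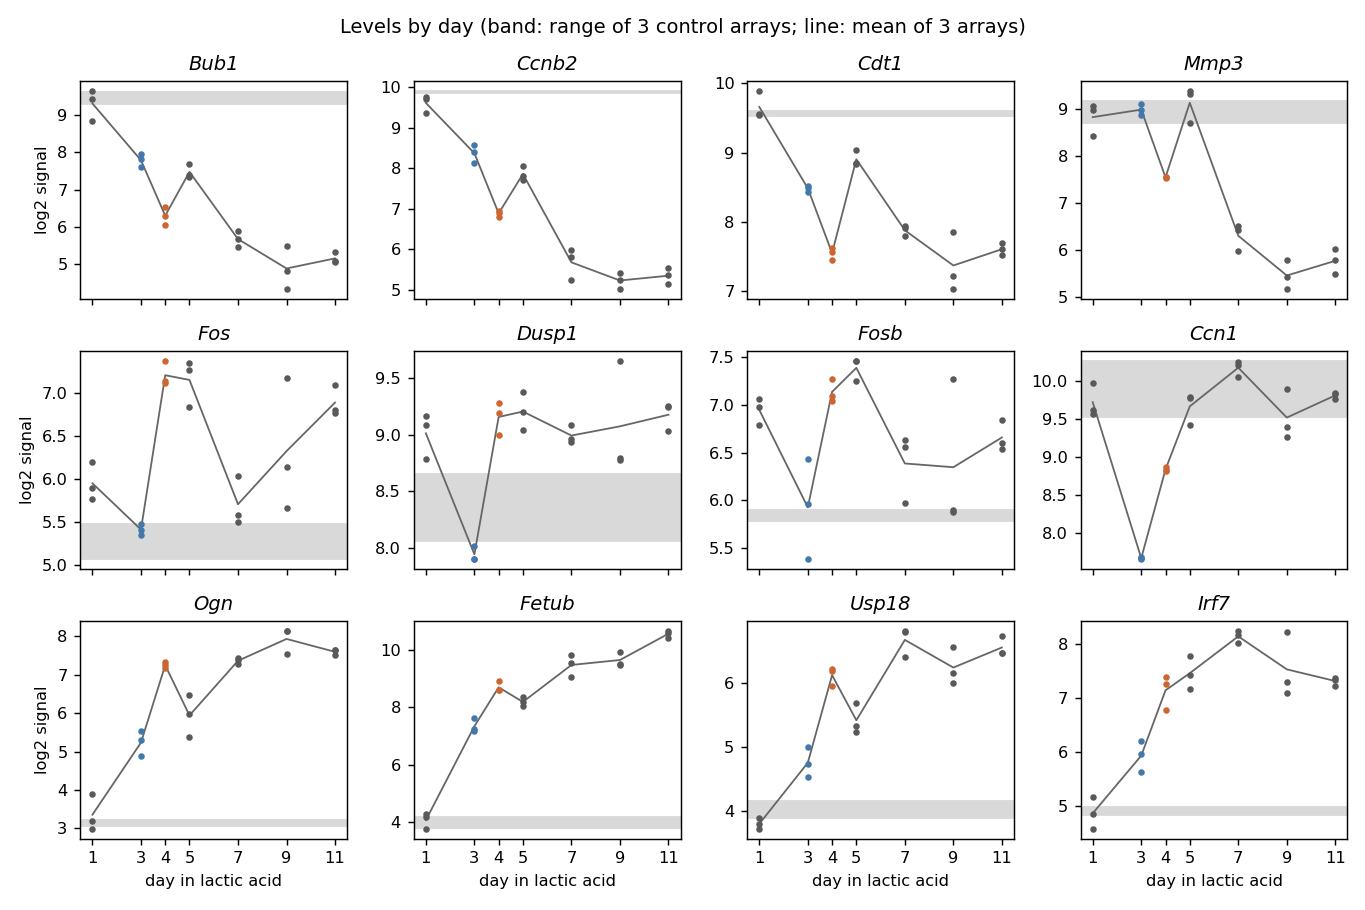
Log2 signal (y axis) by day in lactic acid (x axis) for 12 genes, with 3 arrays a day as points, lines through the means, day 3 in blue, day 4 in orange and the range of the 3 control arrays as a grey band. Bub1, Ccnb2, Cdt1 and Mmp3 dip on day 4 and are higher on day 5, while the day 5 arrays of Fos and Dusp1 overlap those of day 4.

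The step was also set against the step from day 5 to day 7, with which it shares no array. The difference passed in 25 genes (0.125%), 18 with the more positive change from day 3 to day 4 (0.0903%) and 7 with the more negative (0.0351%). Without replicates 1, 2 and 3 it was 2, 7 and 5 for day 3, 6, 5 and 3 for day 4, 53, 6 and 2 for day 5, and 5, 30 and 2 for day 7. It was 601 without the arrays of days 1 and 9 named above. No mitosis gene was among the 25 by limma's test. At an unadjusted p below 0.05, 4 mitosis genes were higher and 0 lower, beside 1600 of all 19938 genes in either direction. The median change of the mitosis genes was -1.06 in the first step and -1.38 in the second. Of the 27 immediate early genes 4 passed: Fos by 3.25 (SE 0.36, limma adjusted p 0.0003), Fosb by 2.22 (SE 0.40), Ier2 by 2.03 (SE 0.38) and Dusp1 by 1.43 (SE 0.25, limma adjusted p 0.0362). Fos rose by 1.80 from day 3 to day 4 and changed by -1.45 (SE 0.25) from day 5 to day 7, and its call held without each of the 12 arrays in turn. The call of Fosb held only without replicate 3 of day 3, 1 of day 5 or 2 of day 7, and that of Ier2 only without replicate 1 of day 5 or 2 of day 7. Without replicate 3 of day 7 their adjusted p was 0.148 and 0.161, and with a replicate block that of Ier2 was 0.0625. Without replicate 1 of day 3, 3 of day 5 or 3 of day 7, only 1 gene passed with the more positive change. That gene was Fos, so the call of Dusp1 was lost in each of these fits. Stc2, the secreted glycoprotein stanniocalcin 2, changed by -0.07 in the first step and rose by 1.16 (SE 0.12) in the second, a difference of -1.23 (SE 0.17, limma adjusted p 0.00411).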

How the data were processed

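Total RNA of 4T1 cells was hybridised as biotin-labelled cRNA to 24 Affymetrix arrays, 3 per group. The deposited values are log2 signals per probe set. The submitters' processing notes name RMA and, for the software, Affymetrix Expression Console 1.1 as what the authors used. The log base was taken from RMA and the range of values (0.96 to 14.71). RMA as a method corrects background and sets all arrays to a common distribution, so a change is relative to other genes. Of 35557 probe sets, 21789 had 1 gene symbol in GEO's annotation of 2016, 1621 had several and 12147 had none. Each of 19938 genes was read from its brightest probe set over all arrays. The number of arrays limits the precision.

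limma 3.58.1 in R 4.3.3 fitted a mean per group to the 21 lactic acid arrays (14 residual degrees of freedom) and tested day 4 minus day 3, day 4 minus the mean of days 3 and 5, and that step minus the step from day 5 to day 7, two-sided, with Benjamini-Hochberg adjustment. The code was tested on simulated data. Same-numbered arrays of days 3 and 4 did not deviate together (correlations 0.01, -0.03 and -0.07 across genes), so the numbers were not taken as pairs.

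Named genes were the 12 largest rises and 12 largest falls that passed with separated arrays, up to 3 a direction per list, 5 a direction for each other comparison, and 15 chosen for their function, with predicted and olfactory genes left out. Other list members named with values (such as Jun, Ier2, Oasl2, Rad54l, Ifit1 and Egr1), the 4 motifs (of 8 looked at) and the Oas1a promoter were chosen after values were seen. The members and all 45 lists were chosen with earlier results of these data known. Scaling, filters, the replicate block, weights and single arrays were varied as alternatives.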

Additional observations from a re-analysis of the deposited data

Results flagged for a closer look

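The change from day 3 to day 4 differed from the change from day 4 to day 5 by limma's test of the difference in 484 genes, and the 5 largest differences each way, predicted genes left out, are given as day 4 minus the mean of days 3 and 5. Day 4 was above its neighbours for H2bc8 (1.79), Ogn (1.66), H2-T24 (1.21), Gnat2, the cone transducin subunit (1.15), and Rtp4 (1.13). On day 7 the means of Ogn (7.36), H2-T24 (7.57), Gnat2 (6.82) and Rtp4 (7.98) stood beside 7.24, 7.05, 6.90 and 7.61 on day 4, and that of H2bc8 (5.64) beside 7.92. Day 4 was below them for Usp17ld (-1.72), Mmp3 (-1.51), Cdc25c (-1.49), Kif4 (-1.46) and Bub1b (-1.42). Usp17ld, a deubiquitinase of a multicopy family, rested on 1 array: replicate 3 of day 4 read 3.33 against 6.14 and 6.32, and its call was lost without that array (adjusted p 0.284), without each array of days 3 and 5, with centred arrays, with a mean trend, with a replicate block and with only the arrays of these days.

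The change from day 3 to day 4 differed from the change from day 5 to day 7, again by limma's test of the difference. It was the more positive for Fos (3.25), Fosb (2.22), Ier2 (2.03), Csf3, the granulocyte growth factor (1.60), and Npnt, the matrix protein nephronectin (1.52). It was the more negative for Angptl6 (-1.51), Cdsn, the adhesion protein corneodesmosin (-1.43), Acox2, a peroxisomal oxidase (-1.33), Stc2 (-1.23) and Cyb5r1 (-1.12). For Csf3, Npnt and the 5 negative genes the first step did not pass the test, with changes of 0.38, 0.02, 0.14, 0.06, 0.22, -0.07 and 0.09. Of these 10 differences, those of Fos and Stc2 passed without each of the 12 arrays in turn. The other 8 did not without replicate 3 of day 7 (adjusted p 0.073 to 0.228). With the replicate number as a block those of Ier2 (0.0625), Cdsn (0.0629) and Cyb5r1 (0.0589) were lost, and that of Cyb5r1 also with centred arrays (0.0671).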

How the results depend on the processing

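No gene result that passed in the main fit or in an alternative turned its direction there. Turns among results that passed in neither were not counted. Of 63 named results that passed, between 36 (adjusted p below 0.01) and 63 still passed under the alternatives that kept all arrays of the days compared.

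For the step from day 3 to day 4 (204; 92 higher, 112 lower), the counts were 64 (26, 38) at an adjusted p below 0.01, 59 (21, 38) at 2-fold, 314 (158 higher) without the 40% dimmest genes, 806 (422, 384) with only the arrays of these days, and 1588 (934, 654) without replicate 1 of day 1 and replicates 2 and 3 of day 9. Every probe set gave 72 lower, and centred arrays gave 144 higher and 57 lower. Array weights gave 2666 (1480, 1186) by REML, which stopped before it converged, so gene-by-gene weights, 1788 (990, 798), were added after those counts were seen. Leaving out 1 array gave 56 to 106 (22 to 44 higher, 34 to 62 lower).

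For day 4 against days 3 and 5 (484; 159, 325), the same settings in order gave 179 (47, 132), 54 (12, 42), 772 (290 higher), 1487 (683, 804) and 2931 (1280, 1651). Loess gave 749 (308 higher), centred arrays 147 lower, and the weights 3861 (1675, 2186) and 3048 (1302, 1746). Leaving out 1 array gave 145 to 516 (40 to 178 higher, 105 to 338 lower).

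For the step against that from day 5 to day 7 (25; 18, 7), the counts were 2 (1, 1) at 0.01, 3 (2, 1) with every probe set, 73 (52, 21) without dim genes and also with loess, 50 (40 higher) with a mean trend, 4 lower with centred arrays, 12 (9, 3) with the replicate block, 52 (41, 11) with 24 arrays, 240 (187, 53) with only the arrays compared, 601 (440, 161) without the 3 arrays, and 898 (617, 281) and 558 (400, 158) with the weights. Leaving out 1 array gave 2 to 53 (1 to 32 higher, 1 to 21 lower).

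Mitosis genes lower (23) numbered 11 at 0.01 and 10 to 15 without 1 array, with 0 higher in each. Interferon genes higher (11) numbered 6 at 0.01, 17 with either weights and without the 3 arrays, and 5 to 9 without 1 array. Immediate early genes higher (5) numbered 2 at 0.01, 10 and 9 with the weights, 8 without the 3 arrays, and 2 to 3 without 1 array. The fall of 1 interferon gene (Ccl5) and 1 immediate early gene (Fosl1) became 0 at 0.01, with centred arrays, with the replicate block and without any 1 array, and 2 immediate early genes fell without the 3 arrays.

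The replicate block gave 171 genes for the step and 415 against days 3 and 5, and kept 53 of the 63 named results. Loess kept 173 of the 204 genes. Why these counts moved was not tested. Some of the settings hold fewer arrays or genes.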
